A study of Mus musculus with 2 samples.

Results

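The 4 type I interferon genes Ifnb1, Ifna2, Ifna4 and Ifna5 were followed in single cells of MC38 tumors, with and without injection of the STING agonist MSA-2. They were taken by a list of symbols from the 32285 features of the deposited count matrices, and each symbol matched 1 feature. Of the kept cells, 1135 of 13334 untreated and 4593 of 13393 MSA-2 cells carried at least 1 unique molecular identifier (UMI, a tag that marks 1 captured transcript) of a member.

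Type I interferons are secreted proteins that warn neighboring cells of infection or damage. Cyclic dinucleotides made by the DNA sensor cGAS, or drugs that take their place, bind STING, which engages the kinase TBK1 and the transcription factor IRF3. IRF3 and NF-κB act together on Ifnb1, the gene of IFN-β, and IRF7, itself an interferon-inducible factor, broadens transcription to the IFN-α genes. All type I interferons signal through the receptor IFNAR1/IFNAR2, and the kinases JAK1 and TYK2 pass the signal on to the nucleus. In tumors, this pathway is best known for its part in the priming of T cells by dendritic cells.

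The members lie in the interferon cluster of mouse chromosome 4 and have 1 exon each in GENCODE M21 on GRCm38. Ifnb1 (ENSMUSG00000048806) is at chr4:88522025-88522774 on the minus strand, and Ifna2 (ENSMUSG00000078354), an IFN-α gene, is at chr4:88682881-88683912 on the same strand. Ifna4 (ENSMUSG00000070904), the IFN-α subtype known for early induction, is at chr4:88841861-88842421, and Ifna5 (ENSMUSG00000096682), a further IFN-α subtype, is at chr4:88835525-88836094, both on the plus strand. The coding sequences of Ifna2 and Ifna4 were 88.0% identical, those of Ifna2 and Ifna5 88.0% and those of Ifna4 and Ifna5 85.2%, whereas Ifnb1 shared 55.1% to 55.6% with them. Ifna2 and Ifna5 share a run of 98 identical bases. The annotated 3′ untranslated region is 201 bases for Ifnb1 and 326 bases for Ifna2 and is 0 for Ifna4 and Ifna5, and the libraries capture transcript 3′ ends. Reads may therefore be split, dropped or missed among the IFN-α genes, so a ratio of UMIs between these genes is given as counted and is not a ratio of transcripts. Such a ratio is compared only between cell classes of 1 library.

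The proximal promoters are shown because they are where the IRF factors and NF-κB that STING engages are known to act. Each line gives 110 bases of RefSeq sequence on GRCm38.p6, 5′ to 3′ on the gene's strand, ending at TATA-like letters for Ifnb1, Ifna4 and Ifna5 and at the annotated start for Ifna2. Capitals mark AANNGAAA, the core letters of an IRF element.
Ifnb1, chr4:88522871-88522980, minus strand: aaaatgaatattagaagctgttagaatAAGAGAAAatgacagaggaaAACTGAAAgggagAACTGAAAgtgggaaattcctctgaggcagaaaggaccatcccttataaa
Ifna2, chr4:88683913-88684022, minus strand: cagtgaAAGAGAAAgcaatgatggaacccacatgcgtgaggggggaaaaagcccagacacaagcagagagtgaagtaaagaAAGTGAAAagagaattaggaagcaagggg
Ifna4, chr4:88841660-88841769, plus strand: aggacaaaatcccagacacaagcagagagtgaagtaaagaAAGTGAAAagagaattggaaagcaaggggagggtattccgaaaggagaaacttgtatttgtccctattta
Ifna5, chr4:88835321-88835430, plus strand: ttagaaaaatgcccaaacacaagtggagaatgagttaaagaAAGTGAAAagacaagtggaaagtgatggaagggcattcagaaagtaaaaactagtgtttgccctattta

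All 4 members had an entry among the promoters. The stretch of Ifnb1 held 3 IRF cores, followed within a few bases by the letters GGGAAATTCC, which match the NF-κB motif. The stretches of Ifna2, Ifna4 and Ifna5 held 2, 1 and 1 cores and no NF-κB match. The Ifna2 stretch ends at another kind of position and covers another part of the promoter, so its count is not compared with the others. Over 250 bases upstream of the start and on both strands, the counts were 3, 2, 3 and 2 cores. Of 32851 promoters of that length, 21.3% held at least 1 core, 0.849% held at least 3, 3.90% held an NF-κB match and 0.0244% held both an NF-κB match and at least 3 cores. These matches are letters in a window and were not measured as binding sites.

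MC38 is a mouse colon carcinoma line grown subcutaneously. MSA-2, a small molecule that binds STING, was injected into the tumors 3 times, every 3 days. Other tumors served as the untreated control, which the series record describes as given saline with DMSO. Tumors of 3 mice were pooled per condition into 1 library, so the spread between tumors is unknown. No test between conditions was possible, and every interval below is a 95% interval that covers counting error only. Strain, sex and age of the pooled mice are not given in the labels. The 13334 untreated cells held 183355500 UMIs (median 8298.5 per cell) and the 13393 MSA-2 cells 191888910 (median 9271). The libraries shared 53 barcodes, and leaving these out moved the log2 ratio of Ifnb1 from 2.67 to 2.68 and left that of Ifna2 at 5.76.

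Cells were assigned to 15 classes by marker genes that include no interferon gene, and each class is named for its markers, so that macrophage stands for a macrophage-like cell. Cells that met no gate, 9.70% of untreated and 10.4% of MSA-2 cells, are called ungated. The makeup differed between the libraries. Macrophages were 27.2% of untreated and 8.59% of MSA-2 cells, Ly6c2 monocytes (recently arrived monocytes that carry the surface protein Ly6C) 1.93% and 4.58%, and neutrophils 0.247% and 19.6%. Although the samples are labelled as tumor cells and the methods call the cells kept after filtering immune cells, tumor-gated cells were 46.3% and 48.3%. The keratins Krt8, Krt18, Krt7 and Krt19 and the epithelial protein Epcam were found in at most 1.05% of these cells. Hmga2, a chromatin protein of tumor and fetal cells, was found in 73.6% and 84.7%. Hmga2 and these keratins are genes of the tumor list, so their shares depend on the gate and do not test the name of the class. Of the same list, Gng11 was found in 98.8% and 99.3% and Ccn1 in 97.2% and 91.9%. Gng11 also stood at 1397.7 CPM in untreated endothelial cells and Ccn1 at 941.5 CPM in untreated fibroblasts, both without Ifnb1. A tumor-gated cell scored low on every other list and carried genes of the tumor list.

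Summed over all kept cells, the members were higher in the MSA-2 library. Ifnb1 had 2977 UMIs in the untreated library and 19888 in the MSA-2 library, or 16.2 and 103.6 UMIs per 1000000 UMIs of the cells summed (CPM). This is a 6.38-fold difference (log2 ratio 2.67, interval 2.62 to 2.73). Ifna2 had 26 and 1477 UMIs, or 0.142 and 7.70 CPM, with a log2 ratio of 5.76 (5.21 to 6.38). Ifnb1 UMIs were thus counted in untreated tumors as well. Ifna4 had 1 and 486 UMIs, with a log2 ratio of 8.86 and a wide interval of 6.37 to 14.17. Ifna5 had 0 and 132 UMIs and was at least 42.0-fold higher when the count of 0 was taken to allow 3 UMIs, and the exact lower limit of its log2 ratio, which also covers the counting error of the 132 UMIs, was 5.08. With 1 CPM added to damp low values, the log2 ratio of Ifnb1 was 2.60, and 3.34% of the 17404 genes with at least 50 UMIs had one of at least 1. Ifna2, Ifna4 and Ifna5 reached 50 UMIs only through the MSA-2 library, so no count of members is read against that share. The median gene had a log2 ratio of -0.01.

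Cells carrying a member were also more frequent. Ifnb1 was found in 8.41% of cells without the agonist (7.95% to 8.90%) and in 32.3% (31.5% to 33.1%) with it. After each cell was thinned to 1500 UMIs, which left out 584 and 1326 shallower cells, these shares were 3.53% and 14.7%. Ifna2 was found in 18 and 625 cells, Ifna4 in 1 and 344 and Ifna5 in 0 and 97. The highest single cell held 29 Ifnb1 UMIs in the untreated library and 52 in the MSA-2 library. Of the 4324 MSA-2 cells with Ifnb1, 1869 were tumor-gated. The share that RNA from other cells would give was not estimated.

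Ly6c2 monocytes had the highest Ifnb1 level in the MSA-2 library and almost none in the untreated one. The 258 untreated monocytes held 4 UMIs (4.26 CPM, 1.16 to 10.9), in 3 cells. The 614 MSA-2 monocytes held 6200 UMIs (2583.1 CPM, 2519.2 to 2648.2), on average 10.1 per cell, and 84.4% of them carried at least 1. The log2 ratio was 9.24 (7.89 to 11.12). In these cells 11.4% of all genes tested had a log2 ratio of at least 1 with 1 CPM added. Each member reached 50 UMIs there only through the MSA-2 library, so no count of members is read against that share.

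Macrophages were the main source of Ifnb1 UMIs without the agonist. They held 2379 UMIs in 3631 untreated cells (112.2 CPM), which was 79.9% of all Ifnb1 UMIs of that library, and 20.1% of them carried at least 1. The 1150 MSA-2 macrophages held 5706 UMIs (957.0 CPM), and 74.4% carried at least 1. The level was 8.53-fold higher (log2 ratio 3.09, 3.02 to 3.16), and the macrophages, now fewer, held 28.7% of the Ifnb1 UMIs, beside 31.2% for monocytes. With 1 CPM added the log2 ratio of Ifnb1 was 3.08, and 5.47% of genes in macrophages had one of at least 1.

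**Figure D1:**
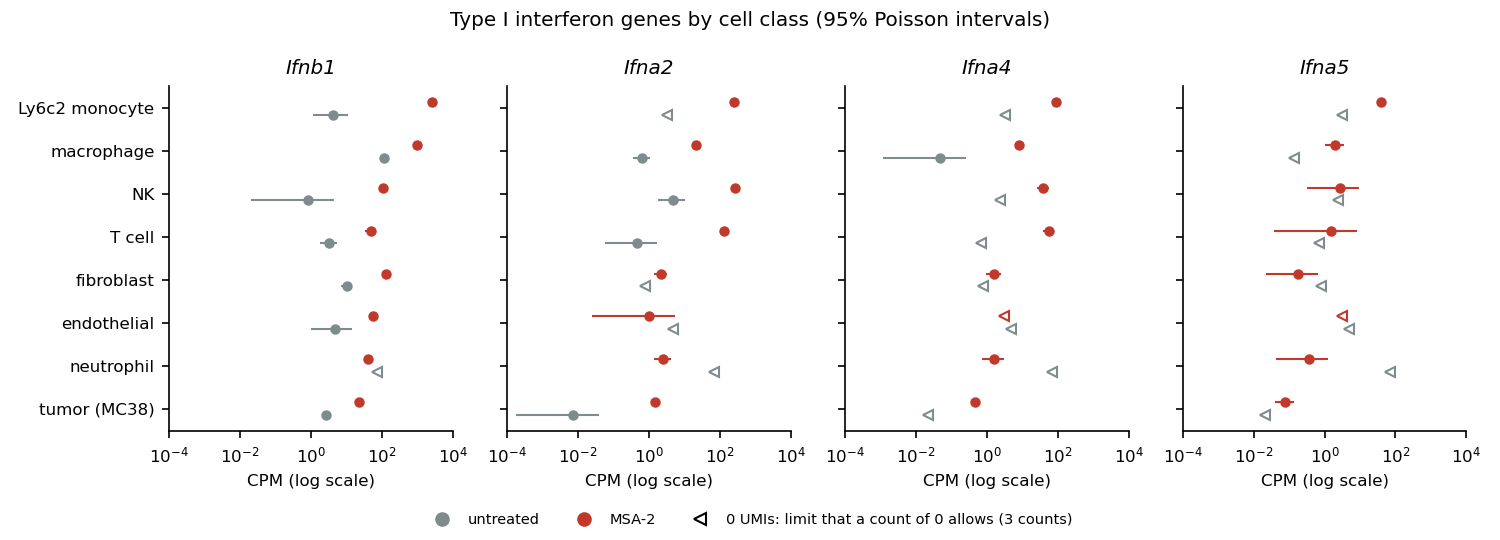
Level of each member (CPM, log axis) in 8 cell classes of the untreated and MSA-2 libraries, with 95% Poisson intervals as bars where they exceed the point; open triangles mark the limit that a count of 0 allows. Ifnb1 was highest in Ly6c2 monocytes of the MSA-2 library (2583.1 CPM), whereas Ifna2 stood at 252.9 CPM in monocytes and 261.9 CPM in NK cells.

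Fibroblasts and tumor-gated cells had lower Ifnb1 levels, which were also higher with MSA-2. Fibroblasts held 38 UMIs in 280 untreated cells (10.2 CPM), 26 of them in 1 cell, and 1413 in 754 MSA-2 cells (127.7 CPM), a log2 ratio of 3.65 (3.18 to 4.15). In fibroblasts 5.45% of genes had a log2 ratio of at least 1 with 1 CPM added, and Ifnb1, the only member tested, reached 50 UMIs only through the MSA-2 library. Tumor-gated cells held 375 UMIs (2.69 CPM) and 3478 UMIs (22.7 CPM), a log2 ratio of 3.08 (2.92 to 3.24). With 1 CPM added the log2 ratio of Ifnb1 in tumor-gated cells was 2.68, and 3.00% of genes there had one of at least 1. Deeper cells show a rare transcript more often, and tumor-gated cells were the deepest, with a median of 20727 UMIs in the MSA-2 library. Ifnb1 was found in 28.9% of them, but in 4.05% after thinning, next to 4.38% of neutrophils, which had the smallest unthinned share among classes with at least 20 MSA-2 cells (5.33%, median 1815 UMIs). Untreated tumor-gated cells stood at 0.542% after the same thinning, and the richest tumor-gated cell with MSA-2 held 40 UMIs. Whether the neutrophil share is a background level was not tested. How much of the share in tumor-gated cells is expression by those cells was not tested either.

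Among the classes with at least 20 cells in each library, the MSA-2 levels of Ifnb1 ran from monocytes over macrophages, mature regulatory dendritic cells (161.2 CPM, 105.3 to 236.2, from 24 cells with 15 of the 26 UMIs in 1 cell), fibroblasts (127.7 CPM), NK cells (110.4 CPM), endothelial cells (56.7 CPM), T cells (48.6 CPM) and neutrophils (40.6 CPM) to tumor-gated cells (22.7 CPM). These 24 cells held more UMIs of the fibroblast list (3342.5 CPM) and the tumor list (2982.8 CPM) than of their own (2424.7 CPM), with a neutrophil list of 2368.9 CPM and Ptprc, the gene of the leukocyte protein CD45, in 37.5%, so their place in the order is uncertain. The intervals of the dendritic cells, fibroblasts and NK cells overlapped, as did those of endothelial cells, T cells and neutrophils. Ungated cells lie outside this order. The 1398 ungated cells of the MSA-2 library held 2641 Ifnb1 UMIs (243.6 CPM). The 1294 of the untreated library held 130 (13.2 CPM), and the log2 ratio was 4.21 (3.95 to 4.47). Neutrophils held 228 UMIs in 2629 MSA-2 cells. Only 33 neutrophils, with a median of 1266 UMIs, were kept in the untreated library. Their count of 0 allows a share of cells with a UMI of up to 9.09% (3 of 33 cells), above the 5.33% of MSA-2 neutrophils, so a difference was not detectable at this depth.

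Within a class, the Ifnb1 UMIs were unevenly spread. In MSA-2 monocytes the quartiles were 2, 6 and 15 UMIs per cell and the highest cell held 52. In MSA-2 macrophages the median was 3, the upper quartile 7 and the highest cell 51. The cells with at least 20 Ifnb1 UMIs numbered 4 without and 192 with the agonist. Of the 192, 112 were monocytes, 39 macrophages, 21 ungated, 12 tumor-gated and 8 fibroblasts. At least 10 UMIs were found in 44 untreated cells, 39 of them macrophages, and in 632 MSA-2 cells.

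The 134 cells richest in Ifnb1, which are 1% of a library, held 40.9% of its Ifnb1 UMIs without and 20.7% with the agonist. The fewest cells that together hold 50% of the UMIs numbered 189 and 510. These values depend on how many UMIs and carrying cells there are, which differ between the libraries, so they are not compared. For Ifna2 in the MSA-2 library, the richest 134 cells held 56.9% of the UMIs and 102 cells held 50%.

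**Figure D2:**
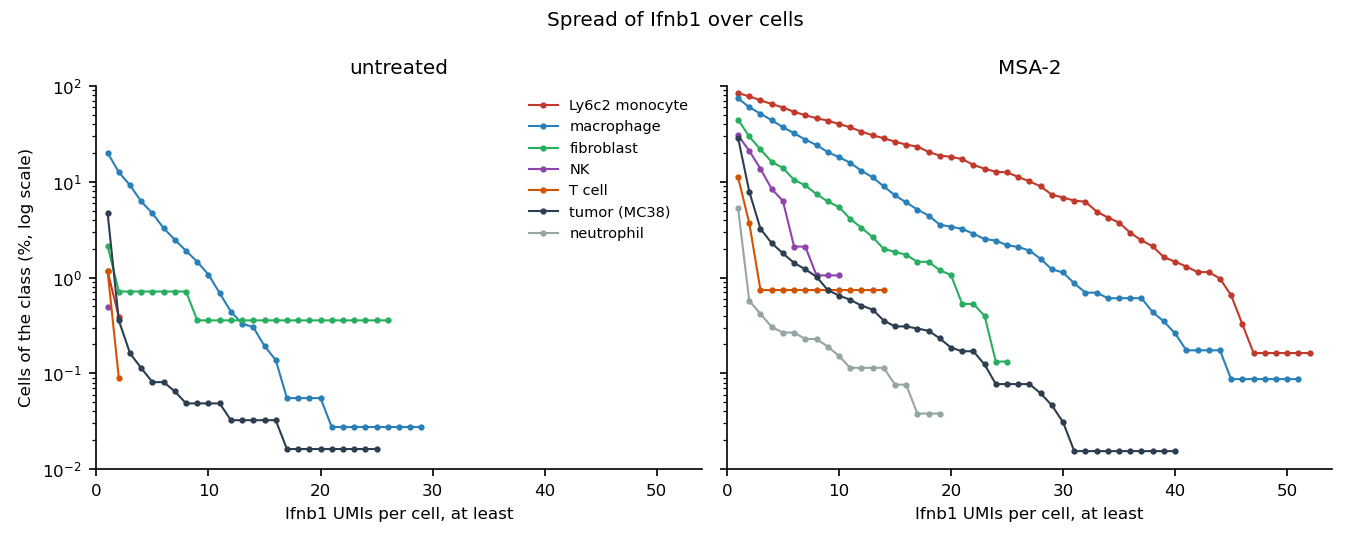
Share of cells of a class (%, log axis) that hold at least the number of Ifnb1 UMIs on the horizontal axis, for the untreated library on the left and the MSA-2 library on the right. In the untreated library the macrophage line starts at 20.1% and lies above the others at low counts, and in the MSA-2 library monocytes start at 84.4% and reach 52 UMIs.

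Ifna2 had another distribution over cells, with NK cells near monocytes, and T cells below monocytes and above macrophages. In MSA-2 cells, NK cells held 197 UMIs in 95 cells (261.9 CPM, 226.6 to 301.2) and monocytes 607 in 614 cells (252.9 CPM, 233.2 to 273.8), and these intervals overlapped. T cells followed with 87 UMIs in 135 cells (132.2 CPM, 105.9 to 163.0). Macrophages held 127 UMIs (21.3 CPM), neutrophils 14 (2.49 CPM), fibroblasts 24 (2.17 CPM) and tumor-gated cells 234 (1.53 CPM). Ungated cells held 179 (16.5 CPM). NK cells here are the natural killer class gated by Ncr1, Klrb1c and related receptors. Their leading genes in the MSA-2 library were granzymes and perforin, with Nkg7 and Ifng, and included no gene of the NK list. Nkg7 and Ifng were also leading genes of MSA-2 T cells. In MSA-2 NK cells the NK list summed to 1456.0 CPM and the T cell list to 174.2 CPM.

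Untreated cells held little Ifna2. Monocytes held 0 UMIs, so that the MSA-2 level was at least 79.2-fold higher against the 3 UMIs that a count of 0 allows, with an exact lower limit of the log2 ratio of 6.0. Macrophages held 14 UMIs (0.660 CPM) and had a log2 ratio of 5.01 (4.21 to 5.92). The 203 untreated NK cells held 6 UMIs, 5 of them in 1 cell, and the 1120 untreated T cells held 2. Summed over NK and T cells, the level was 1.46 CPM without and 201.4 CPM with the agonist, a log2 ratio of 7.10 (6.11 to 8.33). By class it was 5.75 (4.60 to 7.21) in NK cells and 8.13 (6.23 to 11.20) in T cells, with overlapping intervals. The makeup of the sum differed, since NK cells were 203 of 1323 untreated and 95 of 230 MSA-2 NK and T cells. In these cells 3.37% of genes had a log2 ratio of at least 1 with 1 CPM added, and since the members tested reached 50 UMIs only through the MSA-2 library, their own calls are not read.

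Ifna2 was found in 58.9% of MSA-2 NK cells (48.4% to 68.9%), 25.9% of T cells, 26.9% of monocytes, 6.61% of macrophages and 2.76% of tumor-gated cells. After thinning to 1500 UMIs, the shares were 27.4% of NK cells, 10.1% of T cells, 19.1% of monocytes, 3.78% of macrophages and 0.203% of tumor-gated cells. Among T cells of the MSA-2 library, 29 of the 91 with Cd8a or Cd8b1, which encode the CD8 co-receptor, carried Ifna2 (31.9%, 22.5% to 42.5%). It was found in 2 of 9 cells with Cd4 and no CD8 transcript and in 4 of 35 with neither, and the intervals of these shares overlapped.

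The number of Ifna2 UMIs per Ifnb1 UMI differed between the lymphoid and the myeloid classes of the MSA-2 library. It was 0.0979 in monocytes (0.0899 to 0.106), 0.0223 in macrophages (0.0185 to 0.0265) and 0.0170 in fibroblasts (0.0108 to 0.0254). It was 0.0673 in tumor-gated cells and 0.0614 in neutrophils. In NK cells it was 2.37 (1.83 to 3.11) and in T cells 2.72 (1.79 to 4.21). The intervals of NK and T cells did not overlap those of monocytes, macrophages or neutrophils. The macrophage marker list summed to 200.1 CPM in NK cells with Ifna2 and 273.5 CPM in NK cells without, the monocyte list to 2233.2 and 2068.8 CPM and the neutrophil list to 1452.8 and 895.7 CPM. In T cells with and without Ifna2, these lists summed to 223.1 and 260.2 CPM, 1321.0 and 1259.7 CPM, and 343.6 and 819.9 CPM. The part of RNA from these cells was not tested. Cells with Ifna2 were deeper, with a median of 7632.5 against 6008 UMIs in NK cells and 6047 against 3338.5 in T cells, and the part of depth in the detection was not tested.

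**Figure D3:**
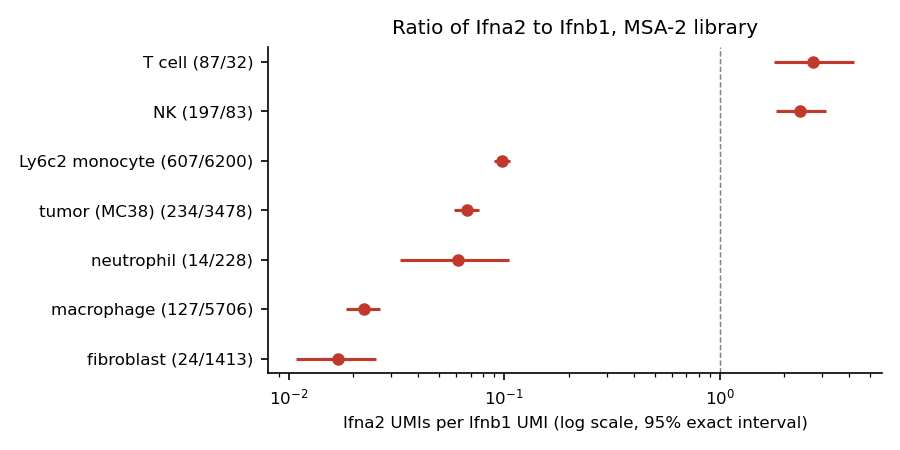
Ifna2 UMIs per Ifnb1 UMI (log axis) in cell classes of the MSA-2 library, with 95% intervals. The ratio as counted was 2.37 in NK cells, 2.72 in T cells, 0.0979 in monocytes and 0.0223 in macrophages.

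Ifna4, like Ifna2, was highest in monocytes, NK cells and T cells, and Ifna5 was mostly a monocyte transcript. Ifna4 in the MSA-2 library had 214 UMIs in monocytes (89.2 CPM), 37 in T cells (56.2 CPM), 30 in NK cells (39.9 CPM), 50 in macrophages (8.39 CPM) and 71 in tumor-gated cells (0.464 CPM). The intervals of T cells (39.6 to 77.5 CPM) and NK cells (26.9 to 56.9 CPM) overlapped. In the untreated library its only UMI was in a macrophage. Ifna5 had 91 of its 132 UMIs in monocytes (37.9 CPM), 12 in macrophages, 12 in tumor-gated cells, 2 in NK cells and 1 in T cells. Per Ifna2 UMI, Ifna5 had 0.150 UMIs in monocytes and 0.0102 in NK cells.

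In monocytes and macrophages of the MSA-2 library, most cells with an IFN-α gene also carried Ifnb1. Of 165 MSA-2 monocytes with Ifna2, 162 also had Ifnb1 (98.2%, 94.8% to 99.6%), while Ifna2 was found in 3.12% of the 96 monocytes without Ifnb1. Of 137 with Ifna4, 136 had Ifnb1, and of 58 with Ifna5, all 58 had it. Of 76 macrophages with Ifna2, 72 had Ifnb1. In MSA-2 neutrophils 3 of the 11 cells with Ifna2 had Ifnb1 (27.3%, 6.02% to 61.0%), and in untreated macrophages 5 of 10 did (interval 18.7% to 81.3%). The reverse did not hold, since 31.3% of the monocytes with Ifnb1 and 8.41% of the macrophages with Ifnb1 carried Ifna2. Ifnb1 itself was found in 84.4% of monocytes and 74.4% of macrophages, the shares against which these overlaps are to be read.

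In NK and T cells most cells with Ifna2 had no Ifnb1 UMI. Of the 91 cells with Ifna2, 28 also had Ifnb1 (30.8%, 21.5% to 41.3%), and 33.9% of the 186 cells without Ifnb1 carried Ifna2. Of the 44 cells with Ifnb1, 28 carried Ifna2 (63.6%, 47.8% to 77.6%). After thinning to 1500 UMIs, 102 of 108 monocytes with Ifna2 had Ifnb1 (94.4%), against 5 of 37 NK and T cells (13.5%). In that random draw Ifnb1 was found in 435 of all 559 monocytes and 12 of all 224 NK and T cells, and another draw found it in 22 of the same 224, so the value for NK and T cells rests on few cells and on the draw. Without thinning, Ifnb1 was found in 19.1% of NK and T cells. Within the IFN-α genes, 28 of the 37 NK and T cells with Ifna4 also carried Ifna2 (75.7%), and 78 of 137 monocytes did (56.9%). Ifna2 was found in 39.6% of all NK and T cells and 26.9% of all monocytes, so no closer pairing in either class is read from these shares.

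The chance of finding Ifna2 was higher in monocytes with more Ifnb1. It was carried by 3.12% of monocytes with 0 Ifnb1 UMIs, 15.1% of those with 1 to 4, 24.2% of those with 5 to 9, 41.0% of those with 10 to 19 and 49.1% of those with 20 or more. Median depth over these groups went from 3202 to 4439 UMIs, and its part in the result was not tested. In tumor-gated cells they went from 2.06% with 0 Ifnb1 UMIs to 3 of the 12 cells with 20 or more. In macrophages the shares were 1.36%, 5.83%, 9.13%, 12.4% and 15.4%, lower than in monocytes in every group with Ifnb1. The intervals of the 2 classes did not overlap at 1 to 4, 5 to 9, 10 to 19 or 20 or more UMIs.

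**Figure D4:**
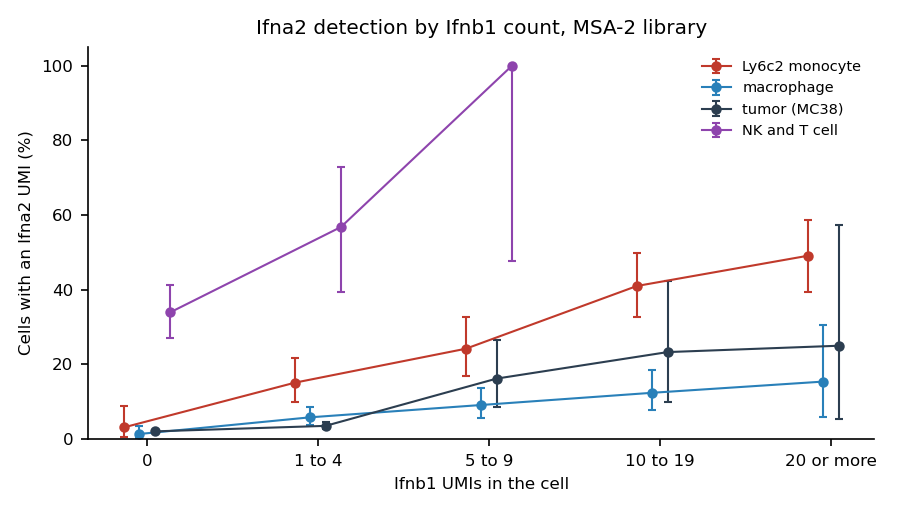
Share of MSA-2 cells with an Ifna2 UMI (%) by their number of Ifnb1 UMIs, with 95% Clopper-Pearson intervals, in Ly6c2 monocytes, macrophages, tumor-gated cells, and NK and T cells; groups under 5 cells are not drawn. Monocytes run from 3.12% to 49.1%, macrophages from 1.36% to 15.4%, and NK and T cells without Ifnb1 already stand at 33.9%.

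Cells with all 4 members were rare. In the MSA-2 library, 3983 cells carried 1 member, 453 carried 2, 127 carried 3 and 30 carried all 4, and 25 of these 30 were monocytes. In the untreated library 1129 cells carried 1 member, 6 carried 2 and none carried more. All 6 were macrophages.

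NK and T cells with Ifna2 were compared with those without it in the MSA-2 library, as a description of cells of 1 library. Here and in the comparisons of cells rich in Ifnb1, a gene was named if it had at least 50 UMIs in both sets of cells together and 50 CPM in either, so a gene can pass through its high side alone and the order of genes is a description. Of 3407 genes tested, 31 were at least 2-fold higher and 74 at least 2-fold lower in the cells with Ifna2. Gzmg, a granzyme gene of the killing machinery, had the highest ratio. It had 672.8 CPM in the 91 cells with Ifna2 and 29.1 CPM in the 139 without (log2 ratio 4.53, 3.89 to 5.25). The chemokine gene Cxcl3 was next (103.6 against 16.0 CPM). The granzyme genes Gzme (856.6 against 224.3 CPM) and Gzmd (2141.5 against 662.7 CPM) were higher too, as were Ifi207, an interferon-inducible gene (56.6 against 14.6 CPM), the chemokine gene Cxcl9 (111.9 against 33.5 CPM) and Klrg1, a receptor of mature effector cells (76.0 against 24.8 CPM). Ifnb1 had 125.7 and 35.0 CPM and Ifna4 70.5 and 23.3 CPM. Ly6c2, a monocyte and memory T cell marker, was lower (49.7 against 218.5 CPM), as was the protease inhibitor gene Serpinb1a (11.1 against 96.1 CPM). NK cells were more frequent among the cells with Ifna2, 56 of 91, than among those without, 39 of 139, and the part of that difference was not tested.

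Tumor-gated cells and fibroblasts with at least 5 Ifnb1 UMIs held more macrophage transcripts than those with 0. The 116 tumor-gated MSA-2 cells with at least 5 Ifnb1 UMIs had a median of 10625.5 UMIs, against 19165 in the 4605 with 0. Ptprc, which encodes the leukocyte protein CD45, was found in 52.6% and 16.8% of them, and the macrophage list summed to 703.5 and 208.5 CPM. Gzmd, Gzmg and Gzmc led the difference, followed among others by Cd86 (110.5 against 7.59 CPM), a costimulatory molecule of antigen-presenting cells, and Tnf (201.9 against 14.9 CPM). These 116 cells held 1204 of the 3478 Ifnb1 UMIs of the class, and the 1753 cells with 1 to 4 UMIs held 2274. In tumor-gated cells with 0, 1 to 4 and at least 5 Ifnb1 UMIs, Ptprc stood at 9.94, 10.5 and 85.8 CPM. The macrophage list of the cells with 1 to 4 summed to 218.3 CPM, and Ptprc was found in 23.4% of them. In fibroblasts the 105 cells with at least 5 Ifnb1 UMIs had similar depth to the 418 with 0 (medians 13995 and 12767.5) and a macrophage list of 622.6 against 251.3 CPM. Of 3 fibroblast markers read in them, the collagen genes Col1a1 (7980.9 against 5814.6 CPM) and Col3a1 (9648.8 against 7790.8 CPM) were higher and Dcn, the gene of the matrix protein decorin, was lower (3676.0 against 4598.9 CPM). Ptprc stood at 13.6, 26.1 and 17.3 CPM in fibroblasts with 0, 1 to 4 and at least 5 Ifnb1 UMIs. The part of immune RNA in the Ifnb1 of either class was not tested.

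Monocytes rich in Ifnb1 were next compared with monocytes without it in the MSA-2 library. The 366 cells with at least 5 UMIs had a median of 4136 UMIs, a monocyte list of 10584.6 CPM and a tumor list of 551.6 CPM. The 96 cells with 0 had 3202 UMIs, 9439.3 CPM and 1281.0 CPM. The macrophage list summed to 2818.6 CPM in the rich cells and 1962.4 CPM in those with 0, and the neutrophil list to 2480.2 and 1680.7 CPM. Of 3353 genes tested, 196 (5.85%) were at least 2-fold higher and 342 at least 2-fold lower in the rich cells. With each cell thinned to 1500 UMIs, 166 of 2061 genes were higher and 103 lower. The IFN-α genes passed the minimum of 50 UMIs only through the rich cells, and nothing is read from their rank. Ifna5 had 89 UMIs and 0, Ifna4 193 and 1, Ifna2 555 and 5 and Ifna16 272 and 3. The same holds for H2-Eb1, an MHC class II gene (62.0 and 6.06 CPM), and Ptger4, a prostaglandin E2 receptor (88.5 and 18.2 CPM). The lowest were Csf3, the granulocyte growth factor G-CSF (8.40 against 187.8 CPM), Gm15056, Pcdh9, Col8a1, a collagen gene, and Arhgap42. With called doublets kept, the log2 ratio of Pcdh9 went from -4.05 to -2.58, that of Col8a1 from -3.81 to -2.21 and that of Arhgap42 from -3.69 to -1.94. The part of tumor or stromal RNA in the cells without Ifnb1 was not tested. The part of macrophage or neutrophil RNA in the rich cells was not tested either.

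Macrophages rich in Ifnb1 were compared in the same way. In the MSA-2 library, 63 of 3227 genes (1.95%) were at least 2-fold higher and 85 at least 2-fold lower in 427 rich cells than in 294 cells without Ifnb1. The higher genes were led by Tnfsf8, the CD30 ligand (114.8 against 28.2 CPM), and Otud1, a deubiquitinase (166.9 against 44.2 CPM). The chemokine gene Ccl8 (343.3 against 2430.2 CPM) and the lectin gene Clec10a (5.78 against 80.4 CPM) were lower. In the untreated library, 70 of 3288 genes (2.13%) were at least 2-fold higher and 76 at least 2-fold lower in 170 rich macrophages than in 2902 without. Ifit1, an interferon response gene, was highest there with 985.8 and 149.2 CPM (log2 ratio 2.72, 2.62 to 2.83). Otud1 was next (204.1 against 34.2 CPM), and Tnfsf8 (60.3 against 15.2 CPM) and Tnf (943.2 against 227.6 CPM) were also among the 15 highest.

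A list of 10 response genes, transcripts known to be induced through the interferon receptor, was read in the same cells. Whether the receptor accounts for their levels in these cells was not tested. In untreated macrophages 8 of the 10 were at least 2-fold higher in cells rich in Ifnb1, with a median log2 ratio of 1.59, where 1.87% of all genes were and the median gene had -0.09. In MSA-2 macrophages 1 of 10 was, with a median of 0.73 (1.58% of all genes, median -0.12). In MSA-2 monocytes 4 of 10 were, with a median of 0.78 (6.19% of all genes, median -0.02). Ifih1, the RNA sensor MDA5, had log2 ratios of 1.91, 0.81 and 1.19 in the 3 settings. Ccl5, a chemokine that recruits T cells, had log2 ratios of 1.20 in untreated macrophages, -0.65 in MSA-2 macrophages and -1.29 in MSA-2 monocytes (6381.3 against 15565.6 CPM). Irf7 differed little, with log2 ratios of 0.02, -0.18 and 0.12.

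**Figure D5:**
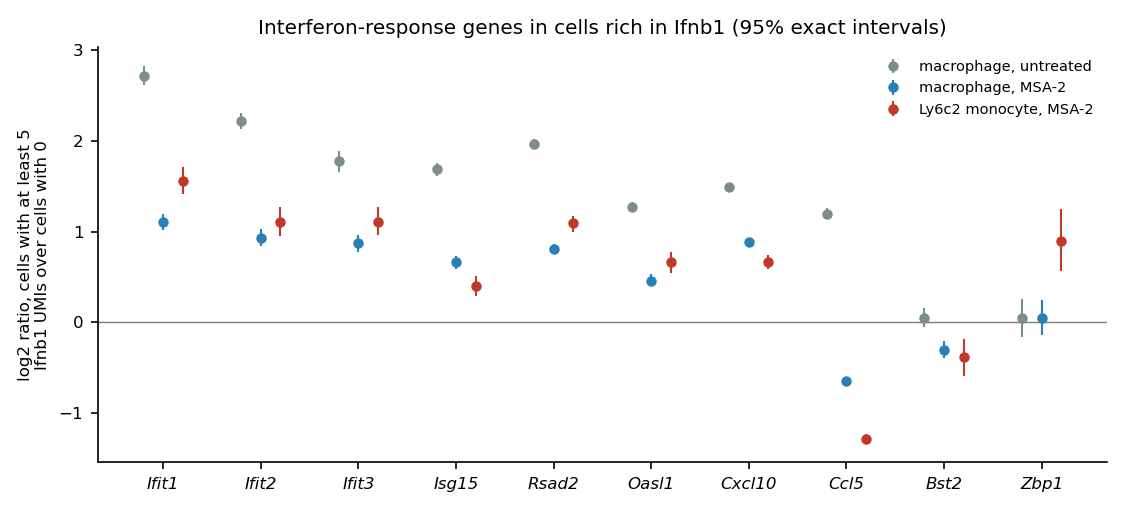
Log2 ratio of the 10 response genes between cells with at least 5 Ifnb1 UMIs and cells with 0, in untreated macrophages, MSA-2 macrophages and MSA-2 Ly6c2 monocytes, with 95% intervals. Ifit1 stands at 2.72, 1.11 and 1.56, and Ccl5 lies above 0 in untreated macrophages (1.20) and below 0 in both MSA-2 classes.

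Across the libraries, the pathway around the members was read in 3 lists. Of 19 induction genes, 3 had a log2 ratio of at least 1 with 1 CPM added over all cells, 8 of the 14 with enough UMIs did in monocytes and 5 of 19 in macrophages, where the shares of all genes were 3.34%, 11.4% and 5.47%. Irf8, a transcription factor of dendritic cells and macrophages, was the 1 induction gene at least 2-fold lower with 1 CPM added, over all cells and in monocytes. Its log2 ratios without the added CPM were -2.26 and -1.51. Of 9 receptor and relay genes, 2 did in all cells, in monocytes and in macrophages. Of 10 response genes, 6 did over all cells, 8 in monocytes (median 3.20, all genes -0.24), 8 in macrophages (median 1.71, all genes -0.13) and 7 in NK and T cells (median 2.29, all genes -0.14), where the share of all genes was 3.37%. Tmem173, the gene of STING, was lower in MSA-2 monocytes (49.0 to 24.2 CPM, log2 ratio -1.02, -1.60 to -0.43) and macrophages (55.2 to 37.2 CPM, log2 ratio -0.57), and stood at 27.2 and 36.2 CPM in NK and T cells. Irf7 was higher in monocytes (364.2 to 810.8 CPM, log2 ratio 1.15), macrophages (287.2 to 576.1 CPM) and NK and T cells (79.2 to 162.4 CPM). Usp18, the negative regulator of the receptor, was higher in monocytes (42.6 to 332.1 CPM, log2 ratio 2.96). The receptor gene Ifnar1 was lower in monocytes (128.9 to 75.0 CPM, log2 ratio -0.78, -1.12 to -0.44). Marker lists of other cells changed between the libraries too. The macrophage list went from 6560.3 to 2748.5 CPM in monocytes. The neutrophil list went from 273.7 to 2251.0 CPM in monocytes and from 122.5 to 1095.3 CPM in macrophages. In NK cells it went from 5.69 to 1265.9 CPM and in T cells from 48.4 to 657.8 CPM. The part of RNA from other cells in the changes of the listed genes was not tested.

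The matrices hold 16 other type I and type III interferon features. Counting the members, 8 of the 20 features had a UMI in untreated cells and 16 in MSA-2 cells, and 4 had none in either. The 14 IFN-α features named Ifna together held 33 and 2812 UMIs. Ifna16, whose coding sequence was 89.5% identical to that of Ifna5, had 6 and 547 UMIs, 298 of the latter in monocytes, and Ifna1 had 0 and 127.

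The genes most like Ifnb1 were found by Pearson correlation of log2 of CPM plus 10 over 20 sums, each of a class and library with at least 50 cells, among 12658 genes. The points share 2 libraries and differ in depth, so the values are descriptions. The nearest were Gm14636 (r = 0.92), Cpeb3, which encodes an RNA-binding protein (0.89), Tmem67, a cilium gene (0.89), and Ifih1 (0.87). Gm14636 stood at 28.8 and 325.4 CPM in untreated and MSA-2 monocytes and at 55.5 and 196.1 CPM in macrophages. Nearest to Ifna2 were Ifna16 (0.97) and Armc8, a subunit of a ubiquitin ligase complex (0.88), with Ifna16 at 124.2 CPM in monocytes and 37.2 CPM in NK cells of the MSA-2 library.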

How the data were processed

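The authors deposited raw UMI counts per feature and barcode for 2 libraries (10x Genomics 3′ v3.1), 1 per condition, without normalization. The matrix headers name Cell Ranger 7.0.1 and the submitters' processing notes Cell Ranger 7.0.0, Seurat 4.3.0 and mm10; the methods give a further version. Cells needed 500 or more genes and no more than 20% mitochondrial UMIs (scanpy 1.11.5 in Python 3.11.15), and doublets called by Scrublet at 0.8% per 1000 barcodes (705 untreated, 570 MSA-2) were removed. Of 15 marker lists, all but the tumor list were scored in each cell by their mean scaled level (score of at least 0.2, 3 markers). Fibroblasts needed a score of 0.3, and the best list had to lead the next by 0.05. A cell that passed none of these gates was tumor-gated if every such score was below 0.2. It also needed UMIs of at least 2 tumor markers and at least 4 tumor-list UMIs per 10000. The scoring was set after the data had been seen, and the members and lists were chosen with earlier results of these data known. UMIs were summed per class and scaled to CPM. Intervals at 95% are exact: Poisson for sums, Clopper-Pearson for shares and conditional binomial for ratios (scipy 1.17.1), and a count of 0 allows 3 counts. No p-value was computed. Ratios of genes called 2-fold higher add 1 CPM and need 50 UMIs, and genes named for rich cells also need 50 CPM on either side. Named genes were the members, the other interferon features, the fixed lists, the 10 genes most like Ifnb1 and Ifna2, and the 15 highest and 5 lowest genes of rich cells; some are not printed. All 200 genes changed in simulated untreated sums had the right sign, and 93.0% of their intervals held the true value. Alternatives covered filters, doublets, gates, thinning, scaling, thresholds and leaving out the richest cells.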

Additional observations from a re-analysis of the deposited data

How the results depend on the processing

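Of 98 alternatives over 19 results, 68 stayed within the interval of the value (or within 1.5 times a count), 30 moved and none reversed. No paired analysis was possible because each condition has 1 library. The log2 ratio of Ifnb1 over all cells was 3.14 with equal weight per cell, 2.74 without the 10 richest cells of each library and 1.94 for the share of cells with a UMI. That of Ifna2 was 7.31 without the 10 richest cells and 5.11 for the share of cells. In macrophages Ifnb1 gave 3.17 without a cell filter, 3.17 with called doublets kept, 3.17 with equal weight and 2.89 with a stricter gate. In tumor-gated cells it gave 3.24, 2.89 and 4.03 without a cell filter, with a stricter gate and with equal weight, and 3.32 without the 10 richest cells. Leaving out the 10 richest cells gave no ratio for Ifnb1 in monocytes and fibroblasts and for Ifna2 in NK and T cells, because the untreated classes fell to 0 UMIs.

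Shares of cells with a UMI rose with depth, except between 3000 UMIs and no thinning in MSA-2 monocytes. At 1500 UMIs Ifnb1 was found in 77.3% of MSA-2 monocytes, 55.3% of MSA-2 macrophages and 10.2% of untreated macrophages. Ifna2 was found at that depth in 18.8% of MSA-2 NK and T cells. With 3000 UMIs, no thinning, or at least 2 UMIs required, Ifnb1 was found in 84.8%, 84.4% and 65.1% of MSA-2 monocytes, 70.4%, 74.4% and 34.6% of MSA-2 macrophages and 15.4%, 20.1% and 3.90% of untreated macrophages, and Ifna2 in 31.0%, 39.6% and 6.25% of MSA-2 NK and T cells. The richest 1% of MSA-2 cells held 17.8% of Ifnb1 UMIs when cells needed 1000 or more genes and no more than 10% mitochondrial UMIs. Thinned to 1500 UMIs, 94.4% of monocytes and 13.5% of NK and T cells with Ifna2 also had Ifnb1. Of all genes, 2.23% had a log2 ratio of at least 1 when 1 UMI sufficed and 1.22% with 10 CPM added. Leaving out the barcodes found in both libraries, the stricter gate for co-detection, the joint sum of NK and T cells and their split by Ifna2 were chosen after seeing the data.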

Other observations

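Dendritic cells, the class best known for carrying the interferon signal to T cells, were few. The untreated library held 71 cDC1-like cells with 16 Ifnb1 UMIs (22.7 CPM, in 4 cells, 9 of the UMIs in 1 cell) and 65 cDC2-like cells with 12 (26.3 CPM). The same library held 79 cells with the markers of mature regulatory dendritic cells, with 4 Ifnb1 UMIs (7.54 CPM). The MSA-2 library held 4 cDC1-like cells with 4 Ifnb1 UMIs and 24 cells with the markers of mature regulatory dendritic cells with 26, of which 15 were in 1 cell. Plasmacytoid dendritic cells, known as strong interferon producers, numbered 18 and 1, and no UMI of a member was counted in them.

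The type III interferon genes Ifnl2 and Ifnl3 had 22 UMIs in 8 cells and 21 UMIs in 9 cells of the MSA-2 library. T cells held 19 and 15 of these UMIs and Ly6c2 monocytes and macrophages held none, whereas the untreated library had 0 UMIs of Ifnl2 and 7 of Ifnl3.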
